A study of Mus musculus with 6 samples.

Results

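The genes described here are the receptor that VUF11207 acts on and its nearest molecular neighbours: the receptor CXCR7 (gene Ackr3), the related receptor Cxcr4, the ligands Cxcl12 and Mif, the arrestins Arrb1 and Arrb2, the peptide hormone Adm, and the parts of its receptor, Calcrl, Ramp2 and Ramp3. They were chosen by name. All 10 were found by symbol among the 18697 genes of the count table, and all 10 had enough counts to be among the 13753 genes tested.

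RNA was sequenced from prostates of mice with experimental autoimmune prostatitis, in which an immune response inflames the gland. The treated group, 3 libraries, came from mice given VUF11207, a synthetic agonist of CXCR7, at 5 mg per kg per day into the peritoneum for 14 days. The vehicle group, 3 libraries, came from mice given an equal amount of DMSO in the same way. All 6 libraries thus carried the prostatitis, and no healthy or untreated group was analysed here. The sources used here do not give the strain or age of the mice, how the disease was induced, or whether each library came from 1 mouse. The p-values therefore measure the spread between these libraries, which may be technical. Of the vehicle libraries, 2 are numbered as replicates 2 and 3, and the other is called the unnumbered vehicle library because the name of its column fits no sample label with a number.

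CXCR7 binds the chemokine CXCL12 and the cytokine MIF, as CXCR4 does. CXCR4 signals through inhibitory G proteins, whereas CXCR7 engages beta-arrestins and carries its ligands into the cell, which lowers the amount of free chemokine. CXCR7 can also take up adrenomedullin, a vasodilator peptide whose own receptor is formed by the protein of Calcrl together with that of Ramp2 or Ramp3. In most tissues Cxcl12 is made by stromal cells, Cxcr4 is prominent on leukocytes, and Ackr3, Calcrl and Ramp2 are found in vessels, Ackr3 also in stroma.

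The coding sequences of both receptors are shown at the start of the second intracellular loop, because receptors that couple to G proteins do so in part through this stretch, and the 2 receptors differ there. Each line runs 5′ to 3′ on the coding strand and comes from a transcript of GENCODE M21 for mm10. The capitals mark 7 codons, of which the first 3 encode the Asp-Arg-Tyr motif. They are codons 141 to 147 of the 362 of Ackr3 and codons 135 to 141 of the 359 of Cxcr4.
Ackr3: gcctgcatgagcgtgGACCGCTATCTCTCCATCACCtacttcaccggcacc
Cxcr4: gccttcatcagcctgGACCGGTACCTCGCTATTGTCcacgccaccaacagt
Of the 21 capital bases 7 differed between the genes, 2 of them within the first 3 codons and 5 in the codons after. The 2 within the first 3 codons leave the encoded Asp-Arg-Tyr the same in both receptors.

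Total counts ran from 20308018 to 33368058 per library. The libraries differed widely in RNA of the neighbouring seminal vesicle within both groups. The 8 seminal vesicle markers listed took 0.695%, 63.3% and 16.3% of the counts with vehicle (the unnumbered library, then replicates 2 and 3) and 27.8%, 3.11% and 3.52% with VUF11207 (replicates 1, 2 and 3). Levels are given as CPM (counts scaled to a common library size after TMM, which corrects for such abundant genes), always in the order of libraries used here for the shares. The median log2 fold change over all genes was -0.041, and 0.14 when library totals were the only scaling. Markers of prostate secretion were present in every library, with 6 of 6 tested. They summed to 40335, 69049 and 77395 CPM with vehicle and to 82326, 107580 and 189910 CPM with VUF11207, without overlap. Sbp was the most abundant of them, and 3 of the 6 had a positive log2 fold change. The part of this difference in the levels of the genes described here was not tested. Across all genes, edgeR's quasi-likelihood test called 0 of 13753 at an adjusted p under 0.05 (0%), and limma voom also 0. DESeq2 called 4 of 17291 (0.0231%). An unadjusted edgeR p under 0.05 was found for 196 genes, 1.43% of those tested. The groups did not overlap for 766 genes, 5.57% of those tested, with VUF11207 higher for 3.05% and lower for 2.52%.

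None of the 10 genes was called different between VUF11207 and vehicle by edgeR, and each had an adjusted p of 0.9999 (two-sided, Benjamini-Hochberg over all genes tested). Of the 10, 5 had a positive and 5 a negative log2 fold change, with a median of -0.13, against 6142 of 13753 positive and a median of -0.041 over all genes. The groups overlapped for 9 of the 10 genes. The exception was Arrb2, which was lower in every VUF11207 library, as were 2.52% of all genes tested, while 3.05% were higher in every one. With all 6 libraries and no covariate, only Arrb2 of the 10 had an unadjusted edgeR p under 0.05. Which genes did so varied with the libraries used. In the 4 libraries whose replicate number occurs in both groups, a choice made after seeing the data, these were Ackr3 and Arrb1. Arrb2 was there at an unadjusted edgeR p of 0.152. Over all genes, that fit had 833 of 13770 at an unadjusted edgeR p under 0.05, against 196 of 13753 with all 6 libraries.

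**Figure D1:**
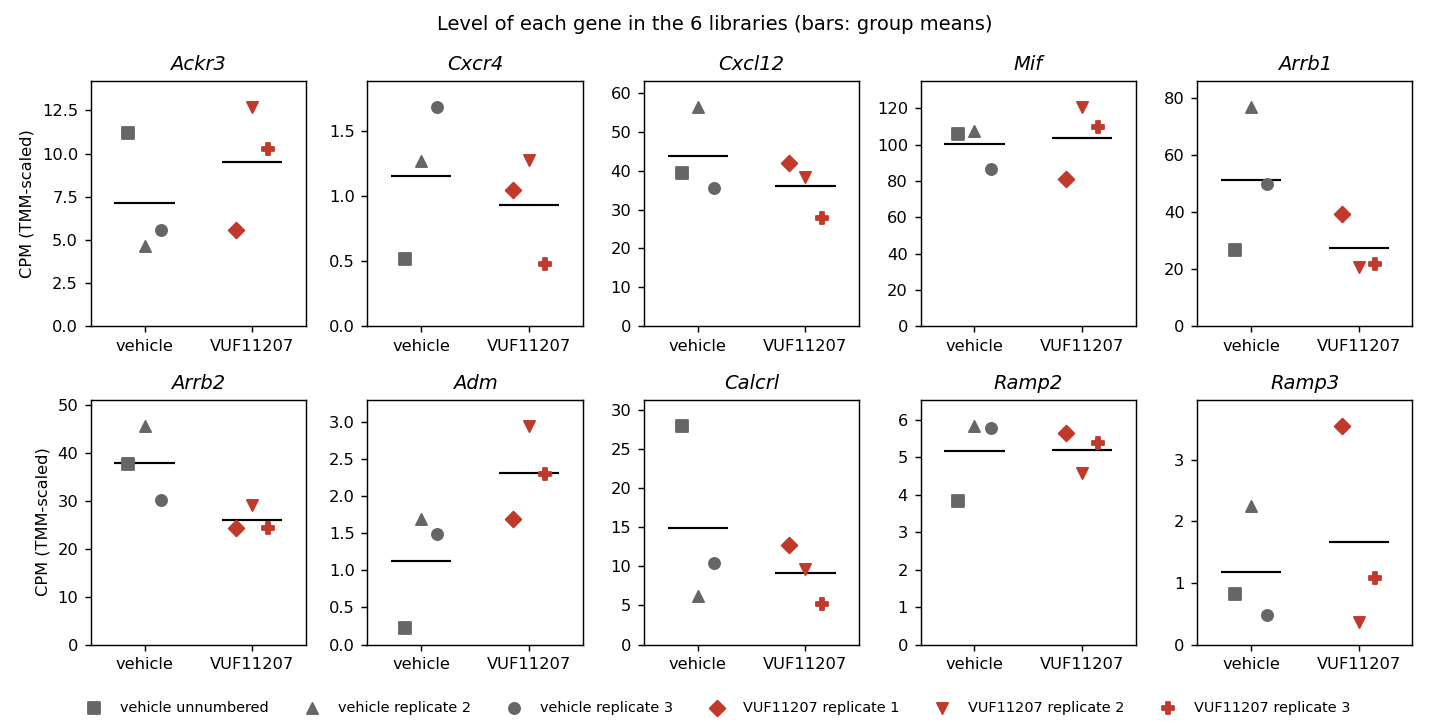
Level of each of the 10 genes (y axis, CPM after TMM scaling, linear from 0) in the 3 vehicle (grey) and 3 VUF11207 (red) libraries, 1 marker shape per library, with bars at the group means. The groups overlap for every gene but Arrb2, for which the VUF11207 libraries sit between 24.4 and 29.2 CPM and the vehicle libraries between 30.1 and 45.7 CPM.

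**Figure D2:**
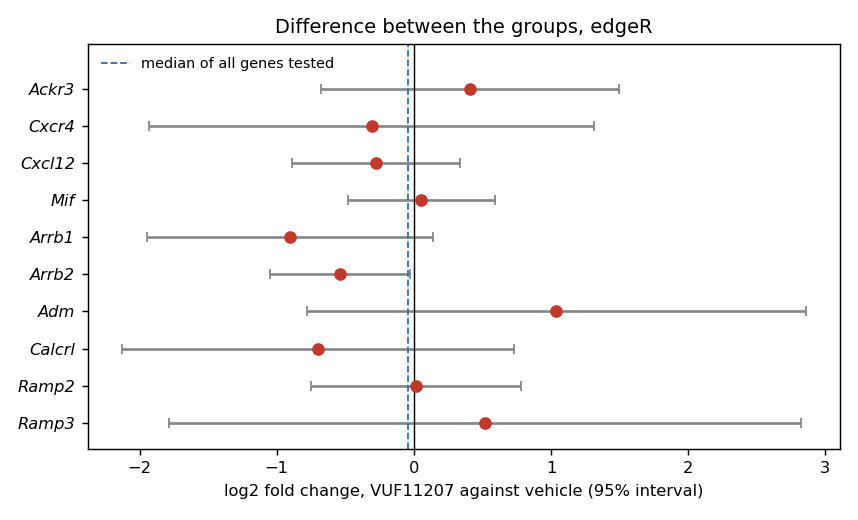
Log2 fold change of VUF11207 against vehicle for each gene (x axis), with the 95% interval from edgeR, and the median of all genes tested as a dashed line. The interval of Arrb2 ends at -0.032, just under 0, before adjustment for the number of genes tested, and the intervals of the other 9 genes include 0.

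Ackr3, the target of the compound, overlapped between the groups and did not pass the test. Its CPM was 11.2, 4.65 and 5.56 with vehicle and 5.58, 12.7 and 10.2 with VUF11207. These rest on 66 to 378 counts. Each group thus held both high and low libraries, and the groups overlapped throughout. The mean was 9.50 CPM ± 3.61 with VUF11207 and 7.14 CPM ± 3.56 with vehicle (SD, n = 3 each). The fitted log2 fold change was 0.41 ± 0.46 (SE), with a 95% interval from -0.68 to 1.499. It was 0.90 without the unnumbered vehicle library, 0.72 without VUF11207 replicate 1, 0.26 and 0.19 without vehicle replicates 3 and 2, and 0.15 without VUF11207 replicate 2. In the 4 numbered libraries, which leave out the highest vehicle and the lowest VUF11207 library for Ackr3, it was 1.18, with a 95% interval from 0.33 to 2.02, an unadjusted edgeR p of 0.0149 and an adjusted p of 0.687.

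The level of Ackr3 was low in the libraries with a high share of seminal vesicle counts, in both groups, a pattern seen after the data were examined. The 3 libraries with 16.3% to 63.3% of such counts had 4.65 to 5.58 CPM of Ackr3, and the 3 with 0.695% to 3.52% had 10.2 to 12.7 CPM. This split holds for the share, in which the most abundant genes weigh most. Svs2, Svs5 and Pate4 were higher in vehicle replicate 3 than in VUF11207 replicate 3, but Svs1, Svs3a, Svs3b, Svs4 and Svs6 were lower. By the mean of centred log2 CPM over the 8 genes, vehicle replicate 3 was at -1.04, below VUF11207 replicate 3 at -0.87. Treated and vehicle libraries occurred on both sides, with 1 vehicle library at 11.2 CPM beside 10.2 and 12.7 CPM with VUF11207, and 1 VUF11207 library at 5.58 CPM beside 4.65 and 5.56 CPM with vehicle. With library totals alone as the scale, the same 2 sets of libraries stood apart, at 1.98 to 6.83 and 11.7 to 15.8 CPM. On that scale a large seminal vesicle share itself lowers the other genes. Mif in vehicle replicate 2, for example, was at 45.8 CPM on it and at 107.7 CPM after TMM. An alternative added after the data were seen took the level of the seminal vesicle genes as a covariate. That level was the mean of their centred log2 values and not the share, so it does not stand for the split above. With it the log2 fold change of Ackr3 was 0.28 ± 0.31 (SE), and with the 2 libraries richest in seminal vesicle counts left out it was 0.48 ± 0.45. The part of tissue content in the level of Ackr3 was not tested. In these bulk samples, fewer cells of a type and less RNA per cell cannot be told apart.

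**Figure D3:**
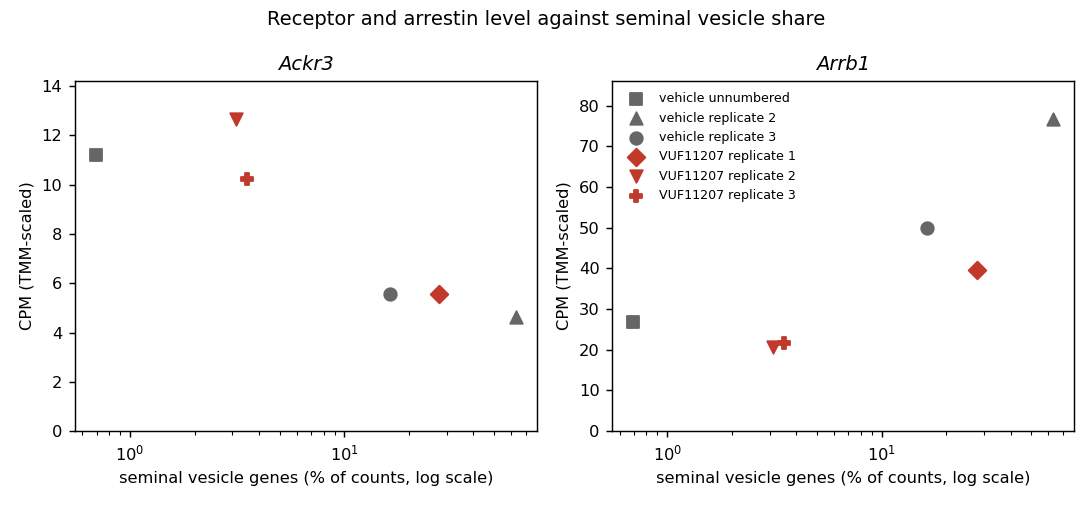
CPM after TMM scaling of Ackr3 and Arrb1 (y axes, from 0) against the share of counts from seminal vesicle genes (x axes, percent, log scale), 1 marker per library, vehicle in grey and VUF11207 in red. Ackr3 is at 10.2 CPM or more in the 3 libraries with the lowest shares and at 5.58 CPM or less in the other 3, and Arrb1 shows the opposite split.

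Cxcr4, the classical CXCL12 receptor, was the lowest of the 10 genes per length and overlapped between the groups. It had 14, 18 and 52 counts with vehicle and 31, 38 and 14 counts with VUF11207. In CPM this was 0.518, 1.27 and 1.68 against 1.05, 1.28 and 0.473. The exact Poisson 95% interval of the lowest value, in VUF11207 replicate 3, ran from 0.259 to 0.794 CPM and covers counting error only. The lowest and the highest vehicle library, 0.518 and 1.68 CPM, spanned nearly the whole range. On the log2 scale the fold change was -0.31 ± 0.68 (SE), with a 95% interval from -1.93 to 1.32. It was 0.081 without vehicle replicate 3 and 0.0075 without VUF11207 replicate 3.

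T cell markers, of which 8 of 8 were in the table, 7 were tested and none was at 0 in every library, summed to 19.5, 5.64 and 10.7 CPM with vehicle and 5.98, 22.2 and 6.36 CPM with VUF11207. The macrophage and monocyte markers, 8 of 8 tested, summed to 360, 117 and 179 CPM against 106, 224 and 98.0 CPM. Neutrophil markers, of which 3 of 6 were tested and Ly6g was at 0 in every library, summed to 14.3, 8.17 and 3.88 CPM with vehicle and to 0.879, 2.72 and 0.473 CPM with VUF11207, without overlap. Among them, and picked after their values were seen, S100a8 was at -3.00 ± 0.69 and S100a9 at -3.56 ± 1.16 (log2 fold change, SE), each with an adjusted edgeR p of 0.9999 and as few as 6 and 1 counts in a library. The vehicle sums rested mostly on these 2 genes. Csf3r, the remaining neutrophil marker tested, was at -0.62 ± 0.98 (log2 fold change, SE). It overlapped between the groups, with 1.78, 0.211 and 0.776 CPM with vehicle and 0.338, 1.24 and 0.237 CPM with VUF11207. The unnumbered vehicle library had the highest sums of macrophage and neutrophil markers and the second highest sum of T cell markers, and one of the lowest Cxcr4 values. The part of leukocyte content in the level of Cxcr4 was not tested.

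The ligand Cxcl12, a stromal chemokine that attracts leukocytes through CXCR4, was among the steadier genes. Its CPM was 39.4, 56.4 and 35.6 with vehicle and 42.2, 38.4 and 27.9 with VUF11207. Vehicle replicate 2 was the highest and VUF11207 replicate 3 the lowest, and the other 4 libraries lay close together across both groups. Its log2 fold change was -0.28 ± 0.26 (SE), with a 95% interval from -0.89 to 0.34. Without vehicle replicate 2 it was -0.042, and scaled by library totals alone it was 0.024. Fibroblast markers, 7 of 7 tested, summed to 323, 185 and 280 CPM with vehicle and to 304, 426 and 320 CPM with VUF11207, so that the library with most Cxcl12 had the least of these markers.

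Mif, a cytokine and tautomerase stored in many cell types, was by far the most abundant of the 10 genes and varied little. Its CPM was 106, 108 and 86.7 with vehicle and 81.1, 121 and 109.7 with VUF11207. The VUF11207 libraries held both the lowest and the highest value. The log2 fold change was 0.052 ± 0.23 (SE), with a 95% interval from -0.48 to 0.59. It turned to -0.037 without vehicle replicate 3 and to -0.067 without VUF11207 replicate 2. The mouse genome holds near-identical processed copies of Mif, 2 of them named as Mif pseudogenes in GENCODE M21, so its counts are uncertain where reads could be shared.

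Both arrestin genes were lower on average with VUF11207, without passing the test. Arrestins bind activated receptors, stop G protein signalling and lead receptors to clathrin-coated pits. Arrb2, which encodes beta-arrestin 2, had 37.6, 45.7 and 30.1 CPM with vehicle and 24.4, 29.2 and 24.4 CPM with VUF11207. Every VUF11207 library lay below every vehicle library, but the gap between the groups, from 29.2 to 30.1 CPM, was narrow. The mean was 25.98 CPM ± 2.75 with VUF11207 and 37.8 CPM ± 7.77 with vehicle (SD, n = 3 each). On the log2 scale the fold change was -0.54 ± 0.21 (SE), with a 95% interval from -1.05 to -0.032, an unadjusted edgeR p of 0.0403 and an adjusted p of 0.9999.

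The lower level of Arrb2 depended on the scaling. With DESeq2 size factors the groups stayed apart, and with library totals alone they overlapped, at 19.4 to 50.1 CPM with vehicle and 24.6 to 36.3 CPM with VUF11207. The log2 fold change was then -0.26, against a median of 0.14 for all genes on that scale. It was -0.32 without the 2 libraries richest in seminal vesicle counts. Leaving out 1 library at a time gave log2 fold changes of Arrb2 from -0.68 without vehicle replicate 3 to -0.37 without vehicle replicate 2.

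Arrb1, which encodes beta-arrestin 1, had a larger difference and a larger spread. Its CPM was 26.7, 76.9 and 49.9 with vehicle and 39.5, 20.6 and 21.8 with VUF11207. Vehicle replicate 2 stood highest, and the unnumbered vehicle library lay among the VUF11207 libraries. Its log2 fold change was -0.90 ± 0.44 (SE), with a 95% interval from -1.95 to 0.14. Without vehicle replicate 2 it was -0.48, and without the unnumbered vehicle library it was -1.21. In the 4 numbered libraries it was -1.57, with an unadjusted edgeR p of 0.00221 and an adjusted p of 0.523. Those libraries leave out the lowest vehicle library for Arrb1, at 26.7 CPM, and the highest VUF11207 library, at 39.5 CPM.

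Arrb1 divided the libraries as Ackr3 did, in the opposite direction. It had 39.5 to 76.9 CPM in the 3 libraries with 16.3% to 63.3% of seminal vesicle counts and 20.6 to 26.7 CPM in the other 3. Here too the split is by the share and not by the mean level of the seminal vesicle genes. Scaled by library totals alone this split was lost, since vehicle replicate 2 was then at 32.7 CPM and the unnumbered vehicle library at 35.6 CPM. The ratio of Arrb1 to Arrb2 counts within a library, which no scaling affects, kept it. That log2 ratio was 0.75, 0.73 and 0.69 in vehicle replicates 2 and 3 and VUF11207 replicate 1, and -0.49, -0.50 and -0.16 in the unnumbered vehicle library and VUF11207 replicates 2 and 3. With the seminal vesicle level as a covariate, the log2 fold change of Arrb1 was -0.71 ± 0.23 (SE), with a 95% interval from -1.26 to -0.16, an unadjusted edgeR p of 0.0191 and an adjusted p of 0.997. For Arrb2 in that fit it was -0.51 ± 0.22 (SE), with an unadjusted edgeR p of 0.0580. The part of seminal vesicle content in the level of Arrb1 was not tested.

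Adm, the gene of adrenomedullin, had the largest positive log2 fold change of the 10 genes and overlapped between the groups. It had 6, 24 and 46 counts with vehicle and 50, 88 and 68 counts with VUF11207. In CPM this was 0.222, 1.69 and 1.49 against 1.69, 2.95 and 2.30. The unnumbered vehicle library stood far below all others, with an exact Poisson 95% interval from 0.0815 to 0.483 CPM, and VUF11207 replicate 1 was level with vehicle replicate 2. The mean was 2.31 CPM ± 0.631 with VUF11207 and 1.13 CPM ± 0.796 with vehicle (SD, n = 3 each). The fitted log2 fold change was 1.04 ± 0.76 (SE), with a 95% interval from -0.78 to 2.86, and 0.55 without the unnumbered vehicle library. GENCODE places the antisense gene Gm28863 over Adm, and without a stated strand setting reads of the pair cannot be told apart.

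Calcrl, the receptor chain that binds adrenomedullin, was set mostly by the same vehicle library, here as its highest. Its CPM was 28.01, 6.27 and 10.5 with vehicle and 12.8, 9.66 and 5.17 with VUF11207. The other 5 libraries lay between 5.17 and 12.8 CPM with no order by treatment. The log2 fold change was -0.70 ± 0.60 (SE), with a 95% interval from -2.13 to 0.73, and it turned to 0.13 without the unnumbered vehicle library. Blood endothelial markers, 12 of 12 tested with none at 0, summed to 107, 75.5 and 55.8 CPM with vehicle and to 72.7, 45.9 and 57.5 CPM with VUF11207. They too were highest in the unnumbered vehicle library, and their part in the level of Calcrl was not tested. In that library Adm was at its lowest and Calcrl at its highest, and the log2 ratio of Adm to Calcrl counts was -6.86 there against -2.91 to -1.16 elsewhere.

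Ramp2 and Ramp3, the accessory chains that give the receptor of Calcrl its preference for adrenomedullin, behaved unlike each other. Ramp2 had 3.85, 5.85 and 5.78 CPM with vehicle and 5.65, 4.60 and 5.38 CPM with VUF11207. Its values were close in all 6 libraries, with a highest value 1.52 times the lowest. Its log2 fold change was 0.014 ± 0.32 (SE), with a 95% interval from -0.75 to 0.78. In the annotation Ramp2 overlaps Vps25 on the same strand, so reads from the shared part may have gone to either gene or to none.

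Ramp3 had 22, 32 and 15 counts with vehicle and 105, 11 and 32 counts with VUF11207. In CPM this was 0.814, 2.25 and 0.485 against 3.55, 0.369 and 1.08. VUF11207 replicates 1 and 2 held the highest and the lowest value, 9.62 times apart, and their exact Poisson 95% intervals, 2.90 to 4.30 and 0.184 to 0.660 CPM, did not meet. The fitted log2 fold change was 0.52 ± 0.97 (SE), with a 95% interval from -1.79 to 2.82. Without VUF11207 replicate 1 it was -0.66, and without vehicle replicate 2 it was 1.37.

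**Figure D4:**
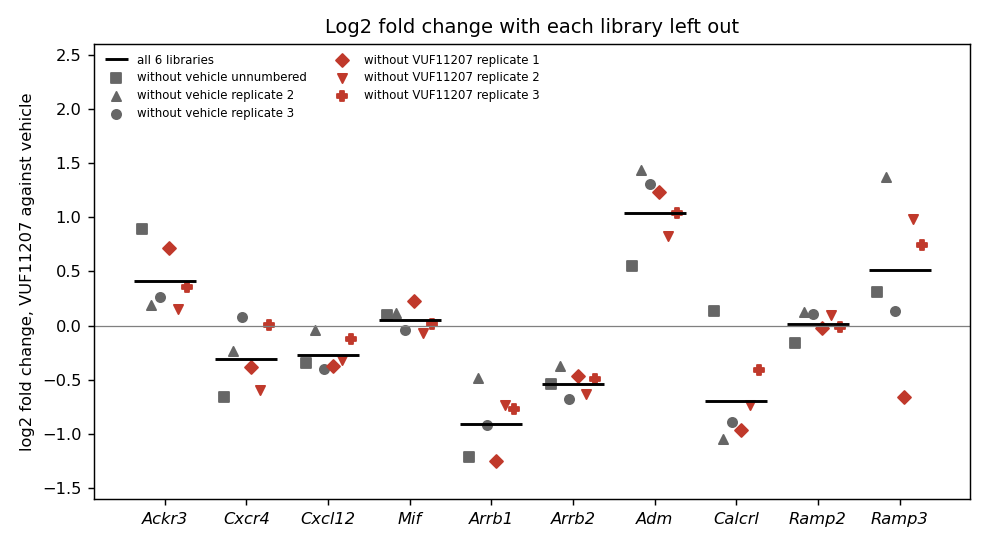
Log2 fold change of VUF11207 against vehicle for each gene (y axis) with all 6 libraries (black bars) and with 1 library left out at a time (markers, grey for a vehicle and red for a VUF11207 library left out). Ackr3, Cxcl12, Arrb1, Arrb2 and Adm stay on their side of 0 in these 6 fits (Cxcl12 only just, at -0.042 without vehicle replicate 2), and Cxcr4, Mif, Calcrl, Ramp2 and Ramp3 cross it.

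How much the genes varied among libraries of a group also differed. The SD of log2 CPM within groups was 0.24 for Arrb2, 0.25 for Mif, 0.26 for Ramp2 and 0.33 for Cxcl12. It was 0.64 for Ackr3, 0.65 for Arrb1, 0.75 for Cxcr4, 0.90 for Calcrl, 1.05 for Adm and 1.30 for Ramp3. Genes with few counts vary more, so each SD was set beside those of genes within 0.5 log2 CPM of the same level. Calcrl, above 88.5% of such genes, and Arrb1, above 87.9%, were then the most variable of the 10, and Ramp2, above 13.8%, the steadiest. Cxcr4 was above 34.0% of genes of its level, so that its spread was not large for a gene so weakly expressed. Cxcl12 was above 57.3% of genes of its level, so that it was steady beside the other members but not for its level.

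Levels can be compared between genes only per length, and CPM per kilobase of annotated exon was used for that. Mif stood at 137 ± 20.2 CPM per kilobase (SD over all 6 libraries) and Arrb2 followed at 11.2 ± 2.92, each above the next gene in all 6 libraries and without overlap of their ranges. Cxcl12 at 4.89 ± 1.15, Arrb1 at 3.51 ± 1.93, Ackr3 at 2.49 ± 1.03, Calcrl at 2.47 ± 1.70 and Ramp2 at 1.57 ± 0.242 CPM per kilobase came next. The lowest were Adm at 1.06 ± 0.563, Ramp3 at 1.03 ± 0.899 and Cxcr4 at 0.577 ± 0.261. From Cxcl12 downward the ranges of neighbours in this order overlapped. Ackr3 exceeded Calcrl in 3 of the 6 libraries, and Arrb1 exceeded Ackr3 in 3, so these neighbours have no firm order. The exon length of Arrb1, 11.175 kilobases, joins all its annotated transcripts, and a shorter transcript in use would give a higher value.

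**Figure D5:**
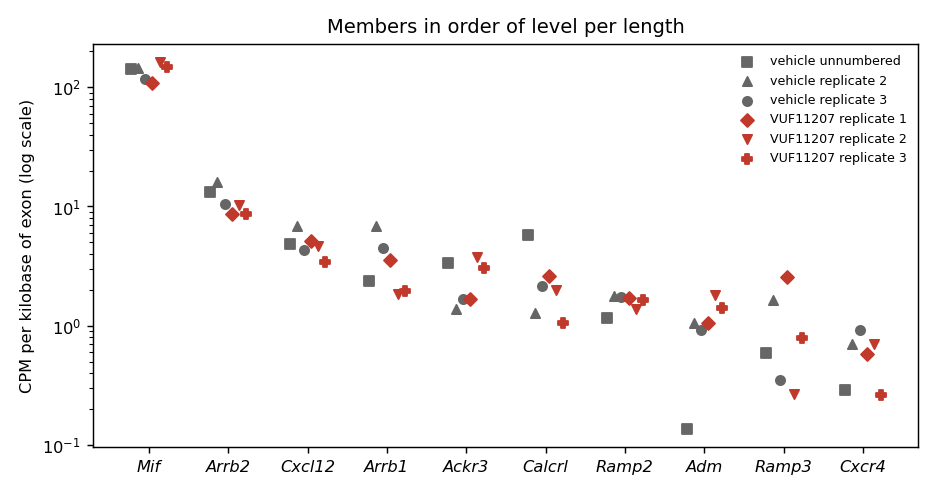
CPM per kilobase of annotated exon (y axis, log scale) of the 10 genes in order of their mean, with 1 marker per library, vehicle in grey and VUF11207 in red. Mif and Arrb2 stand clear of the genes after them, and from Cxcl12 to Cxcr4 neighbouring genes overlap.

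The balance between partners was compared within libraries, as log2 ratios of counts, by exact permutation tests over 7 ratios. With 3 libraries against 3 this two-sided test cannot give a p below 0.1. Ackr3 exceeded Cxcr4 in every library, with log2 ratios of 4.39, 1.85 and 1.72 with vehicle and 2.39, 3.30 and 4.39 with VUF11207, here without correction for length. The mean was 3.36 ± 0.999 with VUF11207 and 2.65 ± 1.51 with vehicle (SD, n = 3 each; exact permutation p = 0.6). Cxcl12 relative to Ackr3 averaged 1.98 ± 0.809 with VUF11207 and 2.69 ± 0.891 with vehicle (SD, n = 3 each; exact permutation p = 0.4). Adm relative to Calcrl averaged -1.92 ± 0.892 with VUF11207 and -3.85 ± 2.66 with vehicle (SD, n = 3 each; exact permutation p = 0.3), and without the unnumbered vehicle library the difference between the means of 1.92 was 0.41.

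Adm relative to Ackr3 was -1.71, -2.10 and -2.15 with VUF11207 and -5.55, -1.44 and -1.89 with vehicle. The VUF11207 libraries lay within the range of the vehicle libraries (exact permutation p = 0.9, n = 3 each). Arrb1 relative to Arrb2, Ramp2 relative to Ramp3 and Cxcl12 relative to Cxcr4 differed by -0.32, -0.19 and 0.0021 between the group means, with exact permutation p of 0.5, 1 and 1. The groups overlapped for all 7 ratios, and each Benjamini-Hochberg adjusted p over the 7 was 1.

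Beyond these genes, 6 lists with 66 other genes of the same pathways were examined, of which 54 were tested and 0 passed the edgeR threshold in either direction. Of the 54, 24 had a positive log2 fold change, and the median was -0.050, against -0.041 over all genes. An unadjusted p under 0.05 by edgeR was found for 2, and for 4, or 7.41%, the groups did not overlap, against 5.57% of all genes tested.

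Among the lists, receptor kinases, clathrin coat and ubiquitin ligase genes, which act when receptors are taken up from the cell surface, had 19 of 19 members tested and 10 positive, with a median log2 fold change of 0.047. At the ends were Cltb, a clathrin light chain, at 0.44 ± 0.19 (SE) and Grk3, a kinase that phosphorylates activated receptors, at -0.35 ± 0.20 (SE). Cltb had 57.7, 66.6 and 61.0 CPM with vehicle and 77.1, 76.2 and 98.2 CPM with VUF11207. Grk3 had 28.8, 33.3 and 42.4 CPM against 28.1, 26.1 and 27.6 CPM. The groups did not overlap for either gene, and the unadjusted edgeR p was 0.0530 for Cltb and 0.121 for Grk3.

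G proteins and kinases downstream of CXCR4 and the arrestins had 17 of 17 members tested and 6 positive, with a median of -0.052. They ranged from Map2k2, a kinase that activates ERK, at -0.44 ± 0.24 (SE) to Mapk3, which encodes ERK1, at 0.27 ± 0.27 (SE). For none of the 17 did the groups stand apart without overlap.

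The other genes of the adrenomedullin and CGRP system had 6 of 9 members tested and 4 positive, with a median of 0.27, which was -0.0067 without vehicle replicate 2. Mme, which encodes neprilysin, a membrane peptidase that degrades adrenomedullin among other peptides, was at 1.35 ± 0.52 (log2 fold change, SE), with an unadjusted edgeR p of 0.0375 and an adjusted p of 0.9999. Its CPM was 96.0, 161 and 282 with vehicle and 342, 299 and 734 with VUF11207. The groups did not overlap, VUF11207 replicate 3 stood highest by a wide margin, and the value was 0.83 without that library. Pam, chosen after its values were seen, encodes the enzyme that amidates adrenomedullin into its active form, and it too was higher in every VUF11207 library, at 0.53 ± 0.22 (log2 fold change, SE).

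Adm2, the gene of the related peptide intermedin, was at -0.98 ± 1.02 (log2 fold change, SE), with 6.36, 6.13 and 0.808 CPM with vehicle and 2.03, 4.33 and 0.372 CPM with VUF11207. Both groups thus held a library with under 1 CPM. Calca and Calcb, the CGRP genes, fell under the count filter, and Calcr, the calcitonin receptor, had 0 counts in every library.

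Among other atypical chemokine receptors and other ligands of CXCR7 or CXCR4, 4 of 8 members were tested and 2 were positive, with a median of 0.060. Cxcl14, a chemokine of epithelium and stroma, was at 0.35 ± 0.29 and Hmgb1, a nuclear protein that binds CXCL12 once released, at -0.11 ± 0.21 (log2 fold change, SE). Ackr2 and Cxcr3 fell under the count filter, and Ackr1 and Cxcl11 were not found by symbol. The other MIF receptors and the MIF homologue had 3 of 4 tested and 0 positive, from Ddt at -0.053 ± 0.22 to Cd74, the MIF receptor chain that antigen-presenting cells also use for MHC class II, at -0.22 ± 0.67 (SE). Cd74 had 318, 141 and 126 CPM with vehicle and 77.4, 339 and 84.9 CPM with VUF11207. The 2 highest libraries, 1 of each group, were also those with most T cell markers, macrophage and monocyte markers, and smooth muscle markers. Cxcr2 fell under the count filter.

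Proteases that trim CXCL12 had 5 of 9 members tested and 2 positive, with a median of -0.080. Dpp4, the dipeptidyl peptidase that inactivates CXCL12, was at -0.83 ± 0.49 (log2 fold change, SE), with 74.2, 174 and 42.2 CPM with vehicle and 56.7, 56.9 and 49.9 CPM with VUF11207. Vehicle replicate 2 set that difference, and without it the value was -0.082. Mmp9, a gelatinase, was at 0.87 ± 0.84 (SE) and turned to -0.34 without VUF11207 replicate 1. Elane, Ctsg and Cpn1 fell under the count filter, and Mmp1a was not found.

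The genes whose pattern over the 6 libraries was most like that of each member were found by the root mean square difference of centred log2 CPM. For Ackr3 they were Xaf1 at 0.080, Arxes2 at 0.089, Mcee at 0.10, Pgm2 at 0.11 and Svbp at 0.13 log2 units, beside an SD of Ackr3 itself of 0.56. Xaf1, for example, had 13.1, 4.86 and 5.98 CPM with vehicle and 5.51, 14.5 and 10.9 CPM with VUF11207. For Calcrl they were Tbkbp1, Cd93, a glycoprotein of endothelial cells, and Scn7a, at 0.088, 0.10 and 0.22. For Arrb1 they were Tmtc2, Cyp3a57 and Pced1b at 0.15, 0.16 and 0.17, and for Arrb2 Miga1, Elp6 and Lsm10 at 0.049, 0.051 and 0.079.

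The nearest genes to Cxcl12 were Exoc6b, Zfp12 and Castor1, those to Mif were Vti1b, Ccnq and Sub1, and those to Ramp2 were Mib1, Vps11 and Hdgf, at 0.030 to 0.079 log2 units. Cxcr4, with Sh3bp1, Nradd and Kctd12b at 0.22 to 0.27, Adm, with Spc25, Nmnat3 and Oas1g at 0.29 to 0.38, and Ramp3, with Bicdl1, Rgcc and Cd300lg at 0.55 to 0.63, had no such close match. Among the 10 genes, the closest pair was Cxcl12 and Arrb2 at 0.23, and the most unlike pair was Adm and Calcrl at 1.78. Likeness over 6 libraries is a description, since many genes share the differences in tissue content.

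In mm10, by GENCODE M21, Ackr3 lies on chromosome 1 from 90203980 to 90216751 and Cxcr4 on chromosome 1 from 128588199 to 128592293. Cxcl12 lies on chromosome 6 from 117168535 to 117181367 and Mif on chromosome 10 from 75859353 to 75860240. Arrb1 lies on chromosome 7 from 99535466 to 99606771, Adm on the same chromosome from 110627661 to 110629820, and Calcrl on chromosome 2 from 84330626 to 84425411. Arrb2, Ramp2 and Ramp3 lie on chromosome 11, from 70432635 to 70440828, from 101246028 to 101259546 and from 6658521 to 6677475. Counts were taken over whole genes, so the exons or transcripts that gave them are not known.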

How the data were processed

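RNA was sequenced from 6 prostate libraries. The authors' deposited file gives raw whole-number counts of reads for each gene symbol and library. Tools listed in the submitters' processing notes are fastp, HISAT2 and HTSeq, with the build mm10. The sources used here give no versions, annotation, strand setting or treatment of reads matching several genes. The own files of 5 samples held the same counts as the table, and the remaining column entered the vehicle group by its name, without a replicate number. Counts were scaled by TMM and filtered with filterByExpr. VUF11207 was compared with vehicle by edgeR 4.0.16 (quasi-likelihood, robust, two-sided, Benjamini-Hochberg, threshold 0.05), a test also tried on simulated counts. Standard errors and 95% intervals were computed from each fitted change and its F value, and centred log2 CPM used a prior count of 2. Ratios used a pseudocount of 0.5 counts and exact permutation tests, and lengths were unions of GENCODE M21 exons. Alternatives used limma 3.58.1, DESeq2 1.42.0, other scalings and filters, a replicate block and leaving out each library. R 4.3.3 and Python 3.11.15 were used.

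Members and lists were chosen with earlier results of these data known. Named genes are the 10 members, the highest, the lowest and the smallest p of each pathway list with those not tested, and the genes most like each member (5 for Ackr3, 3 for the others, at an average log2 CPM of at least 1, without members and names of the form Gm with digits, ending in Rik or starting with LOC).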

Additional observations from a re-analysis of the deposited data

How the results depend on the processing

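The 10 genes were without a call at an adjusted p under 0.05 in each alternative run with edgeR, limma voom or DESeq2, while over all genes library totals as the scale gave 3 calls and DESeq2 gave 4, against 0. Of 599 values recomputed, 545 were classed as the same, 36 as reversed and 18 as moved. For fold changes and ratios, the same means an unchanged sign and side of the 0.05 threshold, whatever the size. For ratios it is a check of sign alone, since the exact test cannot give a p below 0.1. For list medians it means a shift smaller than the SD of the list level within groups, whatever the sign. For the number of genes called it means that the number stayed at 0. Ackr3, Arrb1, Arrb2 and Adm kept their direction throughout, but Adm was left out by the filter of at least 10 counts in every library. With library totals, Cxcl12 was at 0.024, Hmgb1 at 0.14 and Ddt at 0.23 (log2 fold changes, as below). With voom sample weights Ramp2 was at -0.055. Leaving out 1 library at a time gave -0.66 to 0.081 for Cxcr4, -0.067 to 0.23 for Mif, -1.05 to 0.13 for Calcrl, -0.16 to 0.12 for Ramp2, -0.66 to 1.37 for Ramp3, -0.16 to 0.12 for Ddt, -1.26 to 0.33 for Cd74 and -0.34 to 1.33 for Mmp9. The log2 ratio differences ran from -0.47 to 0.43 for Cxcl12 to Cxcr4, from -0.89 to 0.57 for Ramp2 to Ramp3 and from -0.32 to 1.73 for Adm to Ackr3. Without the 2 libraries richest in seminal vesicle counts, a choice made after seeing the data, Ddt was at 0.24 and Mmp9 at -0.39. The cause of these reversals was not tested. With 6 to 105 counts per library, Adm, Cxcr4 and Ramp3 are also limited by depth.

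Replicate numbers 2 and 3 occur in both groups, and deviations of same-numbered libraries correlated at -0.33 and 0.053. These 2 values show no likeness of same-numbered libraries. They cannot settle whether the samples were paired by design, since the libraries also differed widely in tissue content. The replicate block, over the 4 numbered libraries, called 0 genes, as did the same 4 libraries without the block, a choice added later. With the block and then without it in those 4 libraries, Ackr3 was at 1.17 and 1.18 and Arrb1 at -1.53 and -1.57, against 0.41 and -0.90 in all 6. With the block, Ackr3 had an unadjusted edgeR p of 0.0273 (adjusted p 0.705), Arrb1 one of 0.00269 (adjusted p 0.316) and Arrb2, at -0.46, one of 0.146 (adjusted p 0.997). Over all genes, 834 of 13770 had an unadjusted edgeR p under 0.05 with the block. In the same order, Ramp2 was at -0.21 and -0.21, Ramp3 at -0.69 and -0.87, Ddt at 0.056 and 0.032, Cd74 at 0.36 and 0.68, and Mmp9 at -0.73 and -0.66.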
